A study of Mus musculus with 4 samples.

Results

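The mitotic spindle and kinetochore genes described here are 39 mouse genes, taken by name from the 32285 genes of the mRNA libraries. They were chosen with earlier results of these data known. Their transcripts were followed across splenic B cell states, and germinal center (GC) B cells were set against cycling plasmablasts, the dividing precursors of plasma cells. Cycling cells held at least 2 unique molecular identifiers (UMIs, each standing for 1 captured transcript) of Mki67 and Top2a together. Plasmablasts held at least 100 Jchain UMIs per 10000 UMIs of the cell (CP10K). Mki67 and Top2a are members that this gate used, so their differences between gated cells are given without a test, and the other 37 members were tested.

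The cells came from 6 recipient mice, 3 in a WT group and 3 in a DOCK8-deficient group, on day 8 after immunization with SRBC-HEL, sheep red blood cells coupled to hen egg lysozyme (HEL). Each CD45.1+ recipient had received a mixture of CD45.1+ and CD45.2+ B cells from MD4 mice, whose immunoglobulin transgene binds HEL. The CD45.1+ cells were Dock8 wt/wt and without a BCL2 transgene in both groups. The CD45.2+ cells carried BCL2.Tg, which drives the survival protein BCL2 in B cells, in both groups, and were Dock8 wt/wt in the WT group and Dock8 cpm/cpm in the DOCK8-deficient group. The cpm allele was induced by ENU and is described by the study as DOCK8-null. The mice were of both sexes and 8 to 12 weeks old. HEL-binding CD95+ spleen cells were tagged with 1 hashtag antibody per mouse and sorted by CD45 allele, and each fraction gave 1 mRNA and 1 hashtag library. Fraction, transgene and library therefore cannot be told apart.

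In mitosis, cyclin B and CDK1 drive the cell into division, condensin and topoisomerase II compact and disentangle the chromosomes, and kinetochores assembled on CENP-A chromatin attach them to the spindle. The checkpoint kinases hold the anaphase-promoting complex (APC/C) inactive until every kinetochore is attached, after which CDC20 and UBE2C help it to mark cyclin B for destruction, and kinesins such as KIF23 and KIF20A build the midzone that cytokinesis needs. GC B cells divide mainly in the dark zone (DZ) and are selected in the light zone (LZ), and plasmablasts divide before they become resting plasma cells.

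The files held 5232 CD45.1 and 24241 CD45.2 barcodes, of which 375 and 9624 had no hashtag count. After the hashtag and quality filters 9692 cells remained, 3204 CD45.1+ and 6488 CD45.2+. Normalizing hashtags over each cell kept 8602 CD45.2+ cells and asking for a 3-fold lead of the top hashtag kept 8831. No hashtag rule tried here kept as many CD45.2+ cells as the study analysed, whose hashtag settings may have differed, so the cells of this fraction are fewer than those of the study. Cells per mouse numbered 339 to 947 in the CD45.1 fraction, 1672 to 2607 CD45.2+ cells in the WT group and 44 to 101 CD45.2+ cells in the DOCK8-deficient group. The summed UMIs per mouse ran from 342465 to 18036775. Median UMIs per cell lay between 4235.5 and 7438. The mRNA libraries shared 38 barcodes, of which 6 belonged to kept cells in both. GC cells held at least 2 UMIs of 10 GC markers, fewer than 2 of T cell markers and less Jchain than plasmablasts. This gave 4497 GC cells, 2104 of them cycling, and 627 cycling plasmablasts. Cycling plasmablasts had a median of 11 (CD45.1) and 8 (CD45.2) GC marker UMIs, but 0 and 1 once Eaf2, a gene that plasma cells also use, was set aside. Cycling GC cells had 10 and 12 without it. Near the Jchain threshold, 12 CD45.1+ and 25 CD45.2+ cycling plasmablasts lay between 100 and 120 CP10K, and 14 and 17 cycling cells between 80 and 100.

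One check of the labels touches each comparison between the groups within the CD45.2 fraction. The study noted that its WT cells came from males and its DOCK8-deficient cells from females. In CD45.2+ GC cells of the WT mice, Xist, the transcript of the inactive X, stood at 1392, 1651 and 1353 counts per 1000000 UMIs outside immunoglobulin genes and Jchain (CPM). The mice labelled DOCK8-deficient had 353, 530 and 440.0 CPM. Ddx3y, a Y-linked gene, stood at 2.19, 2.21 and 2.84 CPM against 66.7, 67.4 and 49.4. Both transcripts thus ran opposite to that note. A Xist UMI was held by 73 of the 111 CD45.2+ GC cells of mice labelled DOCK8-deficient, and these cells are part of each comparison by group unless it says otherwise. The number of CD45.2+ cells set the groups apart, with 44 to 101 per mouse labelled DOCK8-deficient against 1672 to 2607 per WT mouse, and CD45.2+ plasma-lineage cells numbered 1, 5 and 6 against 323, 558 and 388. These numbers moved with the hashtag rule. CD45.2+ GC cells of mice labelled DOCK8-deficient numbered 38, 23 and 50 here. Normalizing over each cell gave 206, 73 and 244 against 1203, 1496 and 1006 in WT mice. The 3-fold lead gave 144, 74 and 198 against 976, 1710 and 948. CD45.1+ GC cells of the DOCK8-deficient group went from 350, 194 and 329 to 22, 10 and 42 with normalizing over each cell. Each mouse labelled DOCK8-deficient held both Xist and Ddx3y transcripts, with Xist below its level in the WT mice. Whether its CD45.2+ cells were of mixed origin was not tested, and which of the note and the labels holds was not resolved. Among CD45.1+ GC cells, Xist ranged from 1354 to 1698 CPM and Ddx3y had no UMI in any mouse. Dock8 itself stood at 106, 117 and 101 CPM in the WT mice and 106, 111 and 91.5 in those labelled DOCK8-deficient. How the cpm allele affects the level of this transcript was not tested, so these values do not settle the labels. The group names below are those of the labels, sex of origin and genotype cannot be told apart, and the comparison was repeated without the cells with a Xist UMI in mice labelled DOCK8-deficient or a Ddx3y UMI in WT mice.

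The summed members were higher in cycling than in non-cycling GC and plasma cells in both fractions. Mki67 and Top2a, which set this cut, are members themselves, so the difference is given without a test. Summed over the 37 members outside the gate, CD45.1+ cycling GC cells held 8011 CPM in the lowest mouse, 8873 in the median mouse and 9368 in the highest. Cycling plasmablasts of the same 6 mice held 3861, 5230 and 6162 CPM, and the states did not overlap. In the CD45.2 fraction the sums were 7742, 8231 and 10379 CPM in cycling GC cells of 6 mice and 3662, 3810 and 4899 CPM in cycling plasmablasts of the 3 WT mice. Mice labelled DOCK8-deficient held 1, 1 and 2 CD45.2+ cycling plasmablasts, under the minimum of 10 cells, and gave no value. Against all CD45.1+ GC cells, resting ones included, the cycling plasmablasts overlapped, since all GC cells ranged from 4840 to 6694 CPM.

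**Figure D1:**
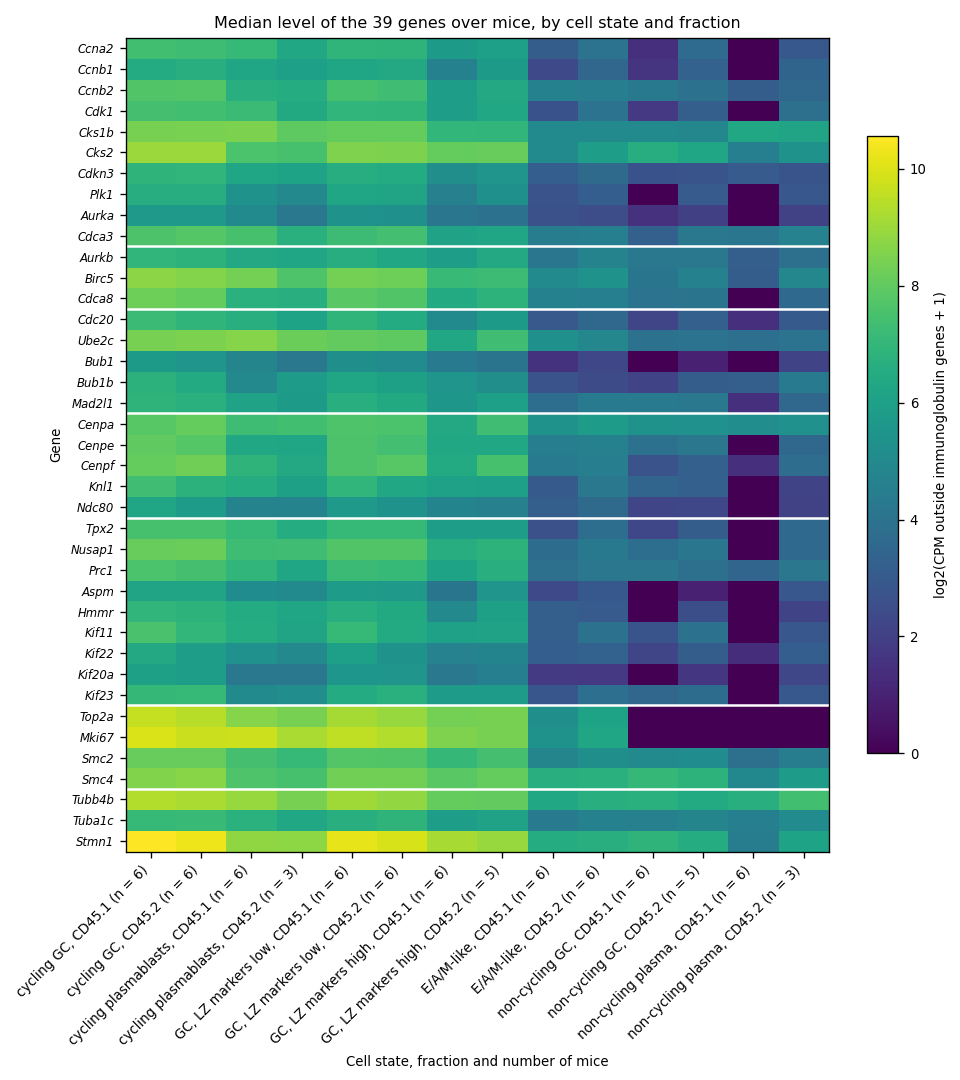
Median level over mice of each of the 39 genes, as log2(CPM + 1) in color, by cell state and fraction, with the number of mice under each column. Levels are high in cycling GC cells, in cycling plasmablasts and in GC cells with few LZ markers. They are lowest in non-cycling GC and plasma cells and in E/A/M-like cells. Colors are to be compared along a row.

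GC cells with few LZ markers (under 10 CP10K, the dark-zone side) carried more of these transcripts than GC cells with many. The sum was 6224 to 7637 CPM in the CD45.1+ LZ-low cells and 2612 to 5064 CPM in the LZ-high cells, and within a mouse it was 1.51- to 2.81-fold higher in the LZ-low cells. Of the 37 members, 33 were higher in LZ-low cells in each of the 6 mice. Cdc20, the activator of the APC/C, had the largest median difference, 2.09 on the log2 scale, with 106.6 to 172 CPM in LZ-low cells and 16.0 to 53.4 CPM in LZ-high cells. Smc4, a condensin subunit, had the smallest, 0.38. In the CD45.2 fraction the ratio of sums ran from 1.06 to 4.06 over 5 mice, and 21 members were higher in all of them. These splits used marker genes of the same cells and are given without a test. The share of all genes that were higher in LZ-low cells in every mouse was not counted.

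E/A/M-like cells (early GC, activated or memory-like cells, with fewer than 2 GC marker UMIs and at least 2 E/A/M marker UMIs) had sums of 429 to 1061 CPM in the CD45.1 and 680 to 1157 CPM in the CD45.2 fraction. Non-cycling CD45.1+ GC cells were near them at 673 to 973 CPM. Non-cycling plasma cells had 391 to 710 CPM, between 0.513 and 0.730 of the non-cycling GC sum of the same mouse. Cks1b, which encodes a small subunit that CDK1 complexes carry, was the 1 member higher in non-cycling plasma cells than in non-cycling GC cells in all 6 mice of the CD45.1 fraction. In that fraction its level was 41.9, 80.3 and 98.2 CPM (lowest, median and highest mouse) in the plasma cells and 19.1, 30.9 and 43.3 CPM in the GC cells, a median log2 difference of 1.16. After each cell was thinned to 2000 UMIs outside immunoglobulin genes, 14.9% of 255 CD45.1+ non-cycling plasma cells and 5.56% of 702 non-cycling GC cells had a Cks1b UMI (31.4% and 7.73% unthinned). None of 38 T-like cells had one, which allows a share of up to 7.89%. In the CD45.2 fraction of the 3 WT mice 7 of 37 members were higher in non-cycling plasma cells in every mouse, namely Aspm, with the largest median log2 difference (1.91), Bub1b, Cdk1, Cks1b, Kif22, Tuba1c and Tubb4b. There the thinned Cks1b shares were 13.1%, 5.29% and 2.63%. Median depths before thinning were 8920, 3571 and 2993.5 UMIs in the CD45.1 fraction and 7222, 5572 and 3349.5 in the CD45.2 fraction. CD45.2+ non-cycling GC cells carried a median of 20 E/A/M marker UMIs, so this gate was mixed. The sum of the 37 members in CD45.2+ non-cycling plasma cells was 0.930 to 1.202 of the sum in those GC cells. For both fractions, the share of all genes that were higher in non-cycling plasma cells in every mouse was not counted.

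Cycling plasmablasts had less of most members than cycling GC cells. Counts were summed per mouse and fraction, which gave 9 pairs (6 mice in the CD45.1 and 3 in the CD45.2 fraction, the 3 WT mice in both), and tested by edgeR's quasi-likelihood test with the pair as block and Benjamini-Hochberg adjustment at 0.05 over all genes tested. All 39 members passed the filter on low counts. Of the 37 tested, 33 were lower in plasmablasts, 1 was higher and 3 did not pass. Over 6533 genes, 34.7% were called lower and 26.7% higher. The members' median log2 fold change was -0.68 and that of all genes tested was -0.11. Within the pairs, 22 members were lower in all 9, where 29.1% of all genes were, and 32 were lower in at least 8. For 17 members every plasmablast value lay below every GC value, as for 17.1% of all genes.

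**Figure D2:**
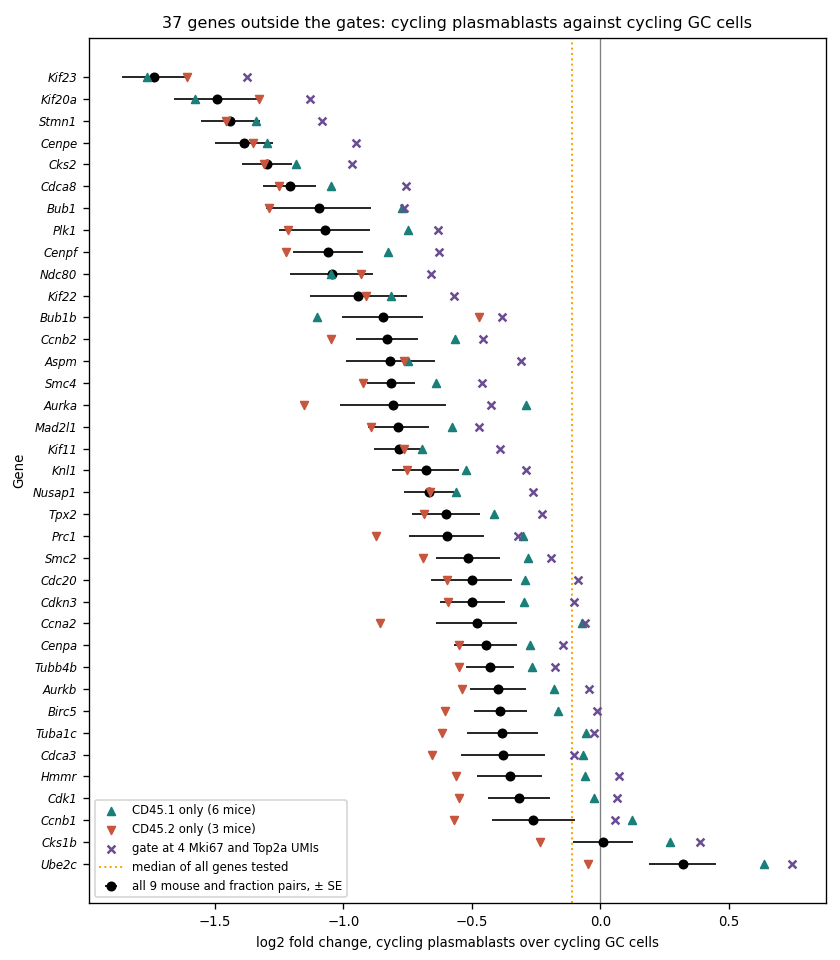
Log2 fold change of the 37 tested genes in cycling plasmablasts over cycling GC cells, as black points with bars for 1 SE (9 pairs). Triangles give the CD45.1 and CD45.2 fractions alone, crosses the gate at 4 Mki67 and Top2a UMIs, and the dotted line the median of all genes tested. The black points run from -1.74 (Kif23) to 0.32 (Ube2c), and 33 of the 37 genes were called lower.

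The regulatory sequence of these genes is shown for the member with the largest fall, for one with a large fall and no CHR element, for the member called higher and for the one with the difference nearest to 0. The windows run from 250 bases before to 50 bases after the start of the gene (RefSeq, GRCm38.p6), on the gene's strand and 5′ to 3′, at chr9:61946750-61947049 (Kif23, minus), chr13:51644982-51645281 (Cks2, plus), chr2:164769679-164769978 (Ube2c, plus) and chr3:89418242-89418541 (Cks1b, minus). Capitals mark CHR elements (TTTGAA or TTCGAA, either strand), through which the DREAM and FOXM1 complexes are known to act on G2/M genes, and CCAAT boxes (CCAAT or ATTGG), which bind NF-Y.
Kif23: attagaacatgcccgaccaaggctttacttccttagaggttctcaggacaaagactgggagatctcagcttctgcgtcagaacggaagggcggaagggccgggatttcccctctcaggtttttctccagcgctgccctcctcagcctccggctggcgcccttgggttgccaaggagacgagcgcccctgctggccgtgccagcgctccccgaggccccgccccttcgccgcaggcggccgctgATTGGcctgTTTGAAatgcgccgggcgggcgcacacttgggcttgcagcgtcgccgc
Cks2: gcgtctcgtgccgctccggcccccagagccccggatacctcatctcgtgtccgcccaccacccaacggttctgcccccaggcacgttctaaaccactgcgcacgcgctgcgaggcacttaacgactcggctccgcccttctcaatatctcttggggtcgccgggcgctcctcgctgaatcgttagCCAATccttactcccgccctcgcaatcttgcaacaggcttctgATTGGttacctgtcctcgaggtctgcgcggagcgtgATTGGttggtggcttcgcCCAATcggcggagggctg
Ube2c: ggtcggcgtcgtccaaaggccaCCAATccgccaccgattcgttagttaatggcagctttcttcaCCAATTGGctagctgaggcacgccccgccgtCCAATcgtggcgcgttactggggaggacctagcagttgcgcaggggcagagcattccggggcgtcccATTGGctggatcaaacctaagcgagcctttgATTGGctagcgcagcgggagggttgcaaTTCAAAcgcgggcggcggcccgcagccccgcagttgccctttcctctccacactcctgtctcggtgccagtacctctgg
Cks1b: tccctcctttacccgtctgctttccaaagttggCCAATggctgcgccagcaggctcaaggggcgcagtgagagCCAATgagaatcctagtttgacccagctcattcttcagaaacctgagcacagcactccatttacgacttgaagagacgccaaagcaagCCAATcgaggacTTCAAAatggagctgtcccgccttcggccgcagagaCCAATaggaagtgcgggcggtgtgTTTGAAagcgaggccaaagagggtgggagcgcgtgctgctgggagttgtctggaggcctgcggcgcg

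Windows were found for 33 of the 39 members. A CHR element was present in 26 of 33 (78.8%), against 19.2% of 32851 windows of the same length over all genes, a CCAAT box in 28 of 33 (84.8% against 37.4%), and both in 24 of 33 (72.7% against 7.52%). Kif23 held 1 CHR element and 1 CCAAT box, and Cks2 held 4 CCAAT boxes. Ube2c and Cks1b, which were not lower in plasmablasts, held both kinds, with 1 CHR element and 6 CCAAT boxes in Ube2c and 2 and 4 in Cks1b. Members with and without a lower level in plasmablasts thus shared these letters, and a match is a description of the sequence only.

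Spindle motors and midzone proteins all fell, 9 of 9, with a median log2 fold change of -0.78. Kif23 (ENSMUSG00000032254, chromosome 9 of GRCm38 from 61915905 to 61946774, minus strand), the kinesin of the centralspindlin complex, had 100.3, 121 and 167 CPM in cycling GC cells (lowest, median and highest of the 9) and 23.2, 31.9 and 42.2 CPM in cycling plasmablasts. The states did not overlap, and Kif23 was 3.33-fold lower (log2 fold change -1.74, SE 0.12, adjusted p = 9.71e-10). In the CD45.2 fraction alone it went from 100.3, 111 and 119 CPM in WT mice 1 to 3 to 40.1, 35.0 and 26.5. After thinning, 20.1% of CD45.1+ cycling GC cells and 5.48% of cycling plasmablasts had a Kif23 UMI (45.03% and 21.3% unthinned).

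Kif20a (ENSMUSG00000003779, chromosome 18), which carries the passenger complex to the midzone, had 42.0, 60.3 and 67.4 CPM in GC cells and 3.84, 17.7 and 22.1 CPM in plasmablasts. Again no values overlapped (log2 fold change -1.49, SE 0.17, adjusted p = 3.75e-07). Kif22, Aspm, Kif11, Nusap1, Tpx2, Prc1 and Hmmr, which crosslink, nucleate or move spindle microtubules or, for Kif22, the chromosome arms, fell by 0.94, 0.82, 0.78, 0.67, 0.60, 0.60 and 0.35 on the log2 scale. Nusap1 and Tpx2 did not overlap between the states, whereas Hmmr did, with 94.3 to 131 CPM against 43.3 to 121 CPM.

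All 5 kinetochore genes fell, with a median of -1.05. Cenpe (ENSMUSG00000045328, chromosome 3 from 135212537 to 135273611, plus strand), the kinesin that moves chromosomes to the spindle equator, had 193, 230.3 and 288 CPM in GC cells and 51.7, 75.5 and 135 CPM in plasmablasts, without overlap (log2 fold change -1.39, SE 0.11, adjusted p = 6.01e-09). Cenpf, a kinetochore protein that accumulates in G2, fell by 1.06, Ndc80, the microtubule-binding core, by 1.05 and Knl1, the scaffold for BUB1, by 0.68. Cenpa, the histone H3 variant of centromeres, fell least, by 0.45, from 198 to 289 CPM in GC cells to 113 to 232 CPM in plasmablasts, which overlapped.

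Among APC/C and checkpoint genes, 4 of 5 fell and 1 rose. The checkpoint kinase Bub1 fell by 1.10, Bub1b by 0.85, the checkpoint protein Mad2l1 by 0.79 and Cdc20 by 0.50 on the log2 scale. Bub1b had a median of 102 CPM in GC cells and 46.4 CPM in plasmablasts, and Mad2l1 of 106 and 57.1 CPM, both without overlap. Ube2c (ENSMUSG00000001403, chromosome 2 from 164769898 to 164778822, plus strand), the E2 enzyme that starts ubiquitin chains on APC/C substrates, went the other way. It had 309, 332 and 381 CPM in GC cells and 252, 338 and 604 CPM in plasmablasts, so the states overlapped, and 6 of 9 pairs were higher (log2 fold change 0.32, SE 0.13, adjusted p = 0.0429). This call did not hold under 9 of 24 other settings, and 4 of them turned its direction.

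**Figure D3:**
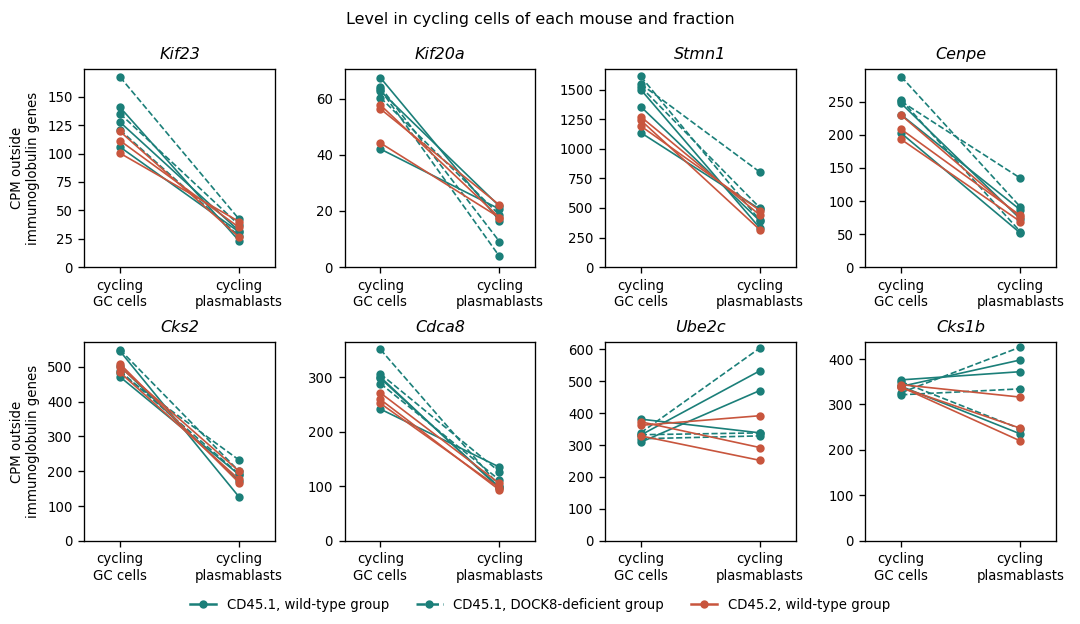
Level in CPM outside immunoglobulin genes of selected genes in cycling GC cells and cycling plasmablasts, each line joining the values of 1 mouse in 1 fraction, with the axis from 0. Lines fall in all 9 pairs for Kif23 and Cks2, while those of Ube2c rise in 6 and fall in 3.

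Of the cyclins, kinases and their adaptors, 7 of 10 fell, with a median of -0.49. Cks2 (ENSMUSG00000062248, chromosome 13 from 51645232 to 51650660, plus strand), a CDK-binding subunit, had 471, 499.7 and 549 CPM in GC cells and 126, 190.0 and 232 CPM in plasmablasts, without overlap (log2 fold change -1.296, SE 0.10, adjusted p = 1.88e-09). Its paralog Cks1b differed by 0.01 (SE 0.12, adjusted p = 0.941), with 321, 340 and 354 CPM against 220, 316 and 426 CPM, 5 pairs lower and 4 higher. The kinase Plk1 fell by 1.07, Ccnb2 by 0.83, Aurka by 0.81, the phosphatase Cdkn3 by 0.50, Ccna2 by 0.48 and Cdk1 by 0.32. Ccnb1, the other B-type cyclin, stood at a log2 difference of -0.26 (SE 0.16, adjusted p = 0.169), and Cdca3 at -0.38 (SE 0.16, adjusted p = 0.0537). Cyclin B genes thus stood on both sides of the threshold, and the difference between them was not tested.

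The chromosomal passenger genes all fell, 3 of 3, by unequal amounts. Cdca8 (ENSMUSG00000028873, chromosome 4 from 124918465 to 124939311, minus strand), which encodes borealin, had 242, 289 and 351 CPM in GC cells and 93.1, 100.4 and 135 CPM in plasmablasts, without overlap (log2 fold change -1.21, SE 0.10, adjusted p = 1.06e-08). Its partners Aurkb, the kinase, and Birc5, survivin, fell by 0.40 and 0.39. Birc5 was lower in all 9 pairs, with 372 to 482 CPM against 199 to 357 CPM. The condensin genes Smc4 and Smc2 fell by 0.81 and 0.52.

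Stmn1 (ENSMUSG00000028832, chromosome 4 from 134468320 to 134473843, plus strand), a protein that destabilizes microtubules, had 1136, 1355 and 1610 CPM in GC cells and 316, 440 and 803 CPM in plasmablasts, without overlap (log2 fold change -1.44, SE 0.11, adjusted p = 4.16e-09). The tubulin genes Tubb4b and Tuba1c fell by 0.43 and 0.38. Top2a, the topoisomerase of the gate, had 670 to 921 CPM against 172 to 575 CPM and a log2 difference of -0.85, while Mki67, the coat protein of mitotic chromosomes, had 764 to 1138 CPM against 595 to 1080 CPM and -0.09.

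The size of the difference moved with the gate. Cycling plasmablasts had a median of 5 (CD45.1) and 3 (CD45.2) Mki67 and Top2a UMIs, and cycling GC cells 10 and 11. Immunoglobulin genes and Jchain took 33.1% and 34.0% of the plasmablasts' UMIs and 4.40% and 3.24% of the GC cells', and median UMIs were 12149 and 10501 against 7341.5 and 10126. With at least 4 Mki67 and Top2a UMIs in both states, 17 members were lower and 2 higher of 37, where 27.5% of 6079 genes were called lower and 27.5% higher, and the members' median was -0.31 (all genes -0.03). The higher members were Ube2c at 0.75 and Cks1b at 0.39, and Kif23 stayed at -1.38 (adjusted p = 3.38e-07). After thinning to 2000 UMIs outside immunoglobulin genes before gating, which kept 8 pairs, 20 of 31 tested members were lower and 0 higher (28.7% and 27.6% of 1818 genes), with a median of -0.70. Cell cycle position within the gate was not tested further. Of the members, 15 were called lower in every fit that tested them, over the main setting and 24 others. They were Ccnb2, Cdca8, Cenpe, Cenpf, Cks2, Kif11, Kif23, Nusap1, Plk1, Smc4, Stmn1, Bub1, Kif20a, Kif22 and Ndc80. In the main fit 34.7% of all genes were called lower, and the share of all genes called lower in every fit was not counted.

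Each fraction was also tested alone. Among the 6 CD45.1 pairs 21 members were lower and 1 higher (27.8% of 6143 genes lower, 26.6% higher), with a median of -0.52. Among the 3 CD45.2 pairs 35 were lower and 0 higher (21.4% of 9558 genes lower, 23.2% higher), with a median of -0.77. The difference between the fractions was tested as an interaction in the same model. It was called for 5.85% of 6533 genes, 1.1% in the negative direction, and for 2 members, both more negative in the CD45.2 fraction. Ccna2, cyclin A, had an interaction of -0.79 (SE 0.23, adjusted p = 0.0367). Its plasmablast level was 69.0, 79.2 and 85.9 CPM in the CD45.2 fraction, below its GC level of 149 to 168 CPM in each mouse, while the CD45.1 plasmablasts ranged from 59.7 to 171 CPM. Ube2c had an interaction of -0.68 (SE 0.20, adjusted p = 0.0367), with CD45.2+ plasmablasts at 252, 292 and 392 CPM and CD45.1+ plasmablasts between 329 and 604 CPM. The interaction was negative for 32 of the 37 members, most of them not called, and the share of all genes with a negative sign was not counted. Within the CD45.1 fraction the interaction of state with the group of the recipient was called for 0 members and for 0% of 6143 genes, with 0 members and 412 genes at an unadjusted p under 0.05 in edgeR, the one tool run.

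Most other division genes were lower in plasmablasts too. Of 57 further mitotic genes, 44 were lower and 13 were not called, with a median of -0.70, and the largest falls were in Tuba1b (-1.51), the phosphatase Cdc25b (-1.41), the midzone kinase Cit (-1.39), Nek2 (-1.28) and Kif15 (-1.26). Of 21 S-phase genes, 16 were lower and 5 were not called, with a median of -1.24, led by Hells (-1.99) and Uhrf1 (-1.97), which act on chromatin at replication, the replicative helicase genes Mcm3 (-1.68) and Mcm5 (-1.66), and Ung (-1.65), the uracil glycosylase. Among 9 tested regulators of G2/M transcription 5 were lower and 1 higher. Mybl2, the activator that binds the DREAM core, fell by 1.58, E2f8 by 1.31, E2f7 by 1.02, the histone chaperone Rbbp4 by 0.87 and E2f1 by 0.78, while the DREAM subunit Lin54, which reads CHR elements, rose by 0.68. Foxm1 stood at -0.20 (adjusted p = 0.302). With the gate at 4 UMIs, 29 of 56 further mitotic genes were lower, and of the S-phase genes 15 were lower and 2 higher.

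All 10 plasma cell markers were higher in plasmablasts, among them Jchain, whose rise was fixed by the gate. LZ markers, which set neither of these gates, were lower for 8 of 9. The 10 GC markers were part of the GC gate and carry no test. Of these, 9 were lower in plasmablasts and 1, Eaf2, was higher, by 2.01 on the log2 scale. Summed over 7 T cell markers no pair reached above 5.53 CPM. The 8 myeloid markers summed to 201 to 265 CPM in GC cells and 420 to 873 CPM in plasmablasts, nearly all from Cst3, which many cell types express, with the other 7 at no more than 8.47 CPM. Of 6 erythroid markers, summing to 55.1 to 104 CPM and 0 to 14.7 CPM, all but Hbb-bt stood at or below 1.35 CPM. E/A/M markers summed to 105 to 863 CPM in GC cells and 46 to 1067 CPM in plasmablasts.

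The design also asked whether loss of DOCK8 changed these genes in GC cells. In the CD45.2 fraction 38, 23 and 50 GC cells of the mice labelled DOCK8-deficient were set against 779, 1206 and 724 of the WT mice. No member was called among 37, against 0.174% of 9783 genes (17), with 2 members and 652 genes at an unadjusted p under 0.05 in edgeR, and DESeq2 called 0 members and 27 genes. In simulated counts this fit recovered 45% of 2-fold and 73% of 4-fold changes, so real changes of such size could go uncalled. Kif22 had 27.5, 24.1 and 29.7 CPM in the mice labelled DOCK8-deficient, from 7, 5 and 12 UMIs, and 43.9, 37.5 and 55.5 CPM in the WT mice (log2 fold change -0.81, SE 0.31, adjusted p = 0.627). Kif23 differed in the other direction, with 114, 135 and 101 CPM against 69.1, 68.2 and 91.2 CPM (log2 fold change 0.49, SE 0.19, adjusted p = 0.633). Over the other settings Kif22 ran from -0.92 to -0.045 and Kif23 from 0.096 to 0.65, and neither was called. Cenpf had 239, 226 and 222 CPM against 151, 153 and 218 CPM (0.30), and Hmmr, Smc4 and Cenpa differed by 0.39, 0.23 and -0.25.

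Without the CD45.2+ GC cells that held a Xist UMI in the mice labelled DOCK8-deficient or a Ddx3y UMI in the WT mice, an alternative chosen after these values were seen, 38 of 111 and 2656 of 2709 GC cells were left, so that most cells behind the first comparison were absent on the DOCK8-deficient side. Mouse 2 of the DOCK8-deficient group had 6 cells and dropped out of the fit, so 2 mice stood against 3. Then 2 members were called, both lower, where 1.27% of 10599 genes were called lower. Stmn1 had 415 and 432 CPM (36 and 43 UMIs) in mice 1 and 3 and 886, 739 and 906 CPM in the WT mice (log2 fold change -1.22, SE 0.17, adjusted p = 0.000144). Cks2 had 127 and 261 CPM (11 and 26 UMIs) against 347, 319 and 392 CPM (-1.05, SE 0.24, adjusted p = 0.0207). With all cells the same genes had log2 fold changes of -0.06 (adjusted p = 0.976) and 0.02 (adjusted p = 0.9901). The values without these cells rest on 15 and 17 cells. The cut left 34.2% of the GC cells labelled DOCK8-deficient and 98.0% of the WT ones. A cell with fewer UMIs is more likely to lack one of Xist, and the depth of the cells left was not compared.

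CD45.1+ GC cells, Dock8 wt/wt in both groups, served as the control within the same recipients. No member was called by the group of the recipient, and 0% of 8201 genes were, with 536 genes at an unadjusted p under 0.05 in edgeR and 0 called by DESeq2. Ccnb2 had the smallest p, with 118, 136 and 113 CPM in the DOCK8-deficient group and 151, 137 and 148 CPM in the WT group (log2 fold change -0.27, SE 0.11, adjusted p = 0.741). Cenpa, Ccnb1, Cenpf, Cks1b and Cdca3 differed by -0.28, -0.31, 0.23, -0.15 and -0.15.

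**Figure D4:**
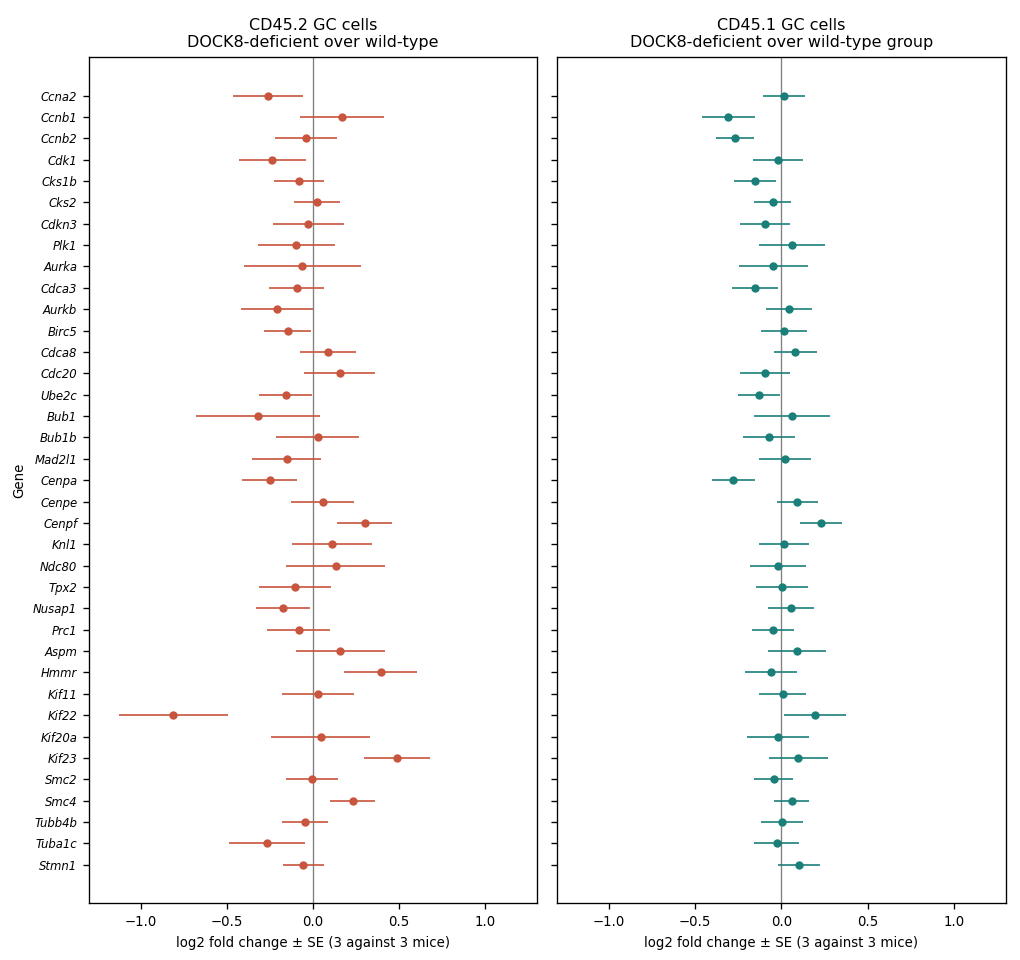
Log2 fold change between the groups for each gene, with bars for 1 SE (3 against 3 mice), in CD45.2+ GC cells and in CD45.1+ GC cells. No gene was called in either fraction, and the bars are wider in the CD45.2 fraction, where the DOCK8-deficient group holds 111 cells.

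Between the fractions of the WT mice, CD45.2+ against CD45.1+ GC cells with the mouse as block, 2 members were higher (8.38% of 9969 genes were) and 1 was lower (6.47%). Nusap1, which bundles spindle microtubules, had 199, 169 and 228 CPM in CD45.2+ and 167, 163 and 152 CPM in CD45.1+ cells of WT mice 1 to 3 (log2 fold change 0.34, SE 0.08, adjusted p = 0.00401). It differed by 0.17 without mouse 3 (adjusted p = 0.242) and by 0.36 without mouse 1 (adjusted p = 0.0559). Cenpf had 151, 153 and 218 CPM against 144, 147 and 146 CPM (0.29, adjusted p = 0.0214), carried by mouse 3, without which it differed by 0.09 (adjusted p = 0.593). Knl1 had 63.2, 63.9 and 82.7 CPM against 102, 108 and 83.3 CPM (-0.43, SE 0.11, adjusted p = 0.0056). It differed by -0.34 without mouse 1 (adjusted p = 0.189) and by -0.28 without mouse 2 (adjusted p = 0.170). Without mouse 3, 0 members were called higher and 2 lower, without mouse 2, 5 higher and 0 lower, and without mouse 1, 0 either way. Calls numbered 0 without the block and 33 with a GC gate that left out Eaf2 and asked for more GC than E/A/M marker UMIs. All 33 were higher, where 8.74% of 9233 genes were called higher and 8.09% lower. CD45.2+ GC cells under the first gate carried a median of 6 E/A/M marker UMIs and CD45.1+ GC cells 0, and the part of these cells in the difference was not tested further.

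The share of GC cells with a Mki67 or Top2a UMI, after thinning every cell to 2000 UMIs, overlapped between the groups in both fractions. It was 39.5%, 34.8% and 56.0% in the CD45.2 fraction of mice labelled DOCK8-deficient (43.4% ± 11.1, SD, n = 3) and 48.4%, 43.1% and 56.8% in the WT mice (49.5% ± 6.94, SD, n = 3; two-sided exact permutation test, p = 0.4). In CD45.1+ cells it was 44.3%, 52.2% and 41.0% (45.8% ± 5.72) against 48.5%, 37.5% and 49.7% (45.23% ± 6.68; two-sided exact permutation test, p = 1). With 3 mice against 3 the smallest p this test can give is 0.1. Thinning is a random draw, and shares from few cells move with it. Without thinning, at 2 or more Mki67 and Top2a UMIs, the CD45.2 shares were 44.7%, 47.8% and 56.0% in mice labelled DOCK8-deficient. They were 52.1%, 42.0% and 62.3% in the WT mice. Under the GC gate without Eaf2 the CD45.2 means were 78.4% ± 11.2 and 74.3% ± 8.13 (SD, n = 3 each, p = 0.7 by the same exact test), so that the sign of the difference turned. Without the cells with a Xist UMI in mice labelled DOCK8-deficient or a Ddx3y UMI in WT mice, the CD45.2 values were 33.3%, 16.7% and 58.8% of 15, 6 and 17 cells against 49.1%, 44.7% and 55.4% (p = 0.4 by the same exact test). Among plasma-lineage cells, 29.4% to 42.4% per mouse were cycling in the CD45.1 fraction and 26.9%, 29.6% and 37.6% in CD45.2+ cells of WT mice 1 to 3, and the mice labelled DOCK8-deficient held 1, 5 and 6 such CD45.2+ cells.

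**Figure D5:**
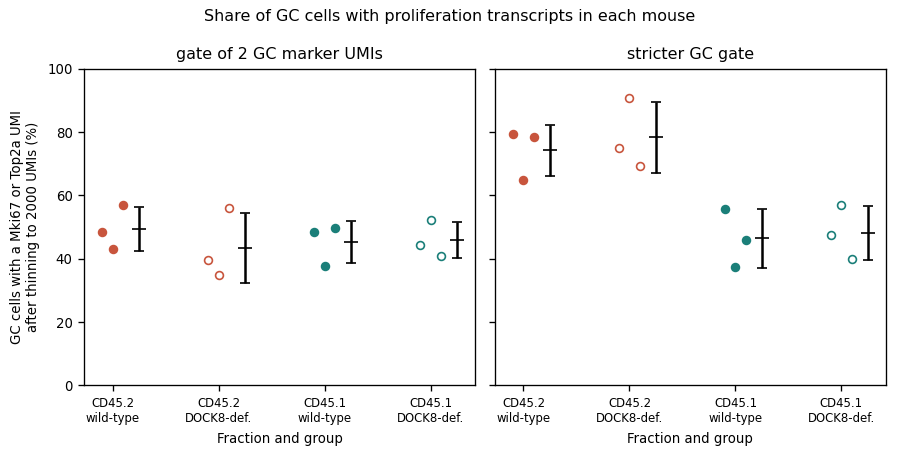
Percent of GC cells with a Mki67 or Top2a UMI after thinning to 2000 UMIs, 1 point per mouse with the mean ± SD beside it, by fraction and group, for the GC gate of 2 marker UMIs and for the gate without Eaf2. Under the first gate the points of the groups overlap, between 34.8% and 56.8% for CD45.2 and between 37.5% and 52.2% for CD45.1, and under the other gate CD45.2+ cells lie higher, from 64.9% to 90.9%.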

How the data were processed

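Splenic B cells of 6 recipient mice were profiled in 4 libraries, an mRNA and a hashtag library for each of the CD45.1 and CD45.2 fractions. Per the labels the authors used Cell Ranger 5.0.1, mm10 and Seurat 4.0, and they deposited raw UMI counts per gene and barcode and raw hashtag counts, without normalization. Their hashtag table gave the mouse and group of each hashtag.

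Cells were hashtag singlets by HTODemux (Seurat 5.3.0, CLR over each hashtag, quantile 0.99) that had less than 10% of counts from mitochondrial genes, more than 100 genes and fewer than 5500. Of 14439 CD45.2+ cells that passed the quality filter and had hashtag counts, 7951 were called doublets between mice and removed, as were 1548 of 4753 CD45.1+ cells. No other doublet caller was run. Gates and levels used Python 3.11.15 (numpy 2.4.6, pandas 2.3.3, scipy 1.17.1, matplotlib 3.10.9). T-like cells held at least 2 T cell marker UMIs. Levels are CPM outside immunoglobulin genes and Jchain, and log2 ratios within pairs have 1 CPM added. Counts summed per mouse over at least 10 cells were tested with edgeR 4.0.16 in R 4.3.3 (quasi-likelihood, TMM, filterByExpr, Benjamini-Hochberg at 0.05), and DESeq2 1.42.0 was the second tool. Genes that set a gate (Mki67, Top2a, Jchain, GC and T cell markers) are outside the counts of genes. The fits were tested on simulated data. Of 2-fold changes, 94% were recovered for plasmablasts against GC cells and 45% between groups in the CD45.2 fraction. The shares were 73% between groups in the CD45.1 fraction and 82% between fractions. P-values measure the spread between mice, which shared each library, except for plasmablasts against GC cells. There they measure the spread between 9 pairs, treated as independent although the 3 WT mice entered in both fractions. Limits of a count of 0 allow 3 counts and cover counting error only. Fits of cells by state and fraction had the mouse or mouse and fraction as block, since both came from 1 animal. Precision was lowest in the DOCK8-deficient CD45.2 fraction, where cells were fewest.

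The members and all lists were chosen with earlier results of these data known. Named members are the called ones with the largest change, up to 6 a direction, or the 6 with the smallest p where fewer than 3 were called, and 5 genes of each other list. Stmn1 and Cks2 in the comparison that left out cells by a Xist or Ddx3y UMI, and members of smaller change, were chosen with their values in view. Coordinates of genes are from GENCODE M21, and promoter windows from RefSeq (GRCm38.p6), which matched all but Aurkb, Ccna2, Kif20a, Smc4, Stmn1 and Tpx2. Alternatives covered the hashtag rule, the gates, thinning, the filters, the normalization, the tool, the block and each mouse left out.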

Additional observations from a re-analysis of the deposited data

Results flagged for a closer look

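Over the 9 pairs of both fractions, log2 ratios of plasmablast to GC level were examined for a value far from the others in all 37 members, where chance alone would single out about 1 in 20. Cdc20 stood apart in the CD45.1 pair of DOCK8-deficient mouse 1 at -2.87, with the nearest pair at -1.36, and Ndc80 in the same pair at -6.21, with the nearest at -1.80. That mouse held 10 cycling plasmablasts, and no Ndc80 UMI was counted in them, so that ratio depends on the 1 CPM added. Cenpf stood apart in the CD45.1 pair of WT mouse 1 at -0.11, with the nearest, the CD45.2 pair of WT mouse 3, at -1.05.

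The difference between plasmablasts and GC cells differed between the fractions for Ccna2, by -0.79, and for Ube2c, by -0.68 (CD45.2 minus CD45.1, on the log2 scale), in the test of that difference. That test called 5.85% of 6533 genes. Fraction, BCL2.Tg and library cannot be told apart in it.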

How the results depend on the processing

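The 33 lower and 1 higher members of plasmablasts numbered 34 calls. They moved to 19 with at least 4 Mki67 and Top2a UMIs, to 20 of 31 tested after thinning and to 22 in the CD45.1 fraction alone, were 33 with no replicate block, and ranged from 29 to 34 with a mouse left out. The block did not end the call of a named member. All genes called fell from 4008 to 1024 after thinning, which left 1818 genes to test. Ube2c turned to -0.14 with hashtags normalized over each cell, -0.24 in plasmablasts with 0 GC marker UMIs other than Eaf2 (added after the data were seen), -0.18 without cells above the 95th UMI percentile and -0.047 in the CD45.2 fraction alone, and lost its call in 5 others. Plasmablasts with 0 GC marker UMIs, Eaf2 included, left no mouse with 10 cells and were not run. By group in the CD45.2 fraction, members called went from 0 to 2 without the cells with a Xist UMI (mice labelled DOCK8-deficient) or a Ddx3y UMI (WT mice), stayed at 0 with any mouse left out, and all genes called ranged from 4 to 150. In CD45.1+ cells the latter ranged from 0 to 71, and Cenpf turned to -0.17 with hashtags normalized over each cell. Between fractions the 3 calls became 0 with DESeq2, 5 without the filter on low counts, 0 with no replicate block, 12 with at least 3 GC marker UMIs and 33 with the gate without Eaf2 (added later), and ranged from 0 without WT mouse 1 to 5 without WT mouse 2. All genes called there ranged from 469 to 1651. The same-numbered fractions came from 1 mouse, which is why this comparison has the block. The difference in cycling share of CD45.2+ GC cells, -6.04 points, moved to 8.17 with under 5% mitochondrial counts and over 500 genes, and ranged from -12.3 to -1.72 with a mouse left out, with p from 0.2 to 0.8. With under 5% mitochondrial counts and over 500 genes, mice 1 and 2 labelled DOCK8-deficient kept the same 38 and 23 CD45.2+ GC cells. Their shares still went from 39.5% and 34.8% to 52.6% and 60.9%, with UMIs drawn anew for each setting. The difference in share was thus not stable against the thinning draw. The causes of the other moves were not tested.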
